A study of Mus musculus with 8 samples.

Results

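Peribiliary fibroblasts, fibroblasts named for the surroundings of the bile duct, make up cluster m4 of the mesenchymal cells of the adult mouse liver. The members were the cells that the authors' multilevel clustering placed in cluster 4: 98 of 1337 mesenchymal cells and of 3491 cells in the series. All 98 carried the authors' annotation as peribiliary fibroblasts, and 95 of them also formed the whole of a community cluster, the finer setting. Livers came from adult mice of both sexes, which were C57BL6/J or carried heterozygous reporters (Pdgfrb GFP, Pdgfra H2bGFP, Cspg4 dsRED, Acta2 GFP, Cldn5 GFP) or combinations of them. Mesenchymal cells were gated by the Pdgfra, Pdgfrb or Acta2 reporter or by an antibody against PDGFRα, so shares of cells depend on the gates. The cells carry no label for the animal, its strain or its age. Some plate names hold letters such as Acta2, EC or Rb, which are not read here as a strain. The samples are 2 pools, 1 of cells from male mice (89 m4 cells) and 1 of cells from female mice (9 m4 cells), and the sources used here give the number of mice and their ages for the study as a whole, not for each pool.

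Portal fibroblasts lie in the connective tissue around portal veins, arteries and bile ducts and lay down collagen and elastic fibres. Hepatic stellate cells (HSC) are the retinoid-storing mesenchymal cells along the sinusoids and a well known source of scar matrix. The 4 marker genes given for m4 encode a secreted protein that binds Wnt ligands (*Wif1*), a receptor for neurturin (*Gfra2*), a secreted guidance protein that binds ROBO receptors (*Slit2*) and the surface protein CD90 (*Thy1*).

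Cluster m4 was set beside the fibroblast clusters m1 (181 cells), m8 (156 cells) and m10 (127 cells) and beside HSC of community cluster m7c (72 cells). The m4 cells had a median of 259246 read counts when male and 352991 when female, against 114907 in m8. Cells were spread unevenly over the sorting plates, which are lettered here by their number of m4 cells. Plate A held 54 m4 cells, plate B 16, plate C 13 and plate D, the only female mesenchymal plate, 9. The other fibroblasts on plate A were nearly all m10 (105 of 107 cells), those on plate B mostly m8 (153 of 165), and those on plates C and D all m1 (35 and 93). Plate and cluster can therefore hardly be told apart among m1, m8 and m10, and sex cannot be told apart from plate D. Plates A, B and C belong to the male pool and may share animals, so an SD over the 4 plates describes the spread between plates, not between animals. Levels are given as CPM, counts scaled to the library total, of the summed counts of a cluster on a plate, in the order of plates A, B, C and D, with m4 first and the other fibroblasts of the same plates second. CPM are compared within a gene, not between genes.

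Marker lists were checked first. All 8 fibroblast markers were at 10 CPM or more in m4 on each plate, and their sum was 21585 to 36268 CPM over the 4 plates, against 19102 to 34617 CPM in the other fibroblasts and 14277 CPM in m7c, where 7 of the 8 also reached 10 CPM. The 7 HSC markers summed to 1602 to 2778 CPM in m4, against 16525 CPM in m7c. The 6 cholangiocyte markers summed to 3.58 to 132 CPM in m4 and 9.27 to 109 CPM in the other fibroblasts, against 8361 CPM in cholangiocytes, and *Epcam* and *Cdh1* were at 0 in m4 on plates A, B and D. The 6 hepatocyte markers summed to 499 to 1421 CPM in m4 and 545 to 901 CPM in the other fibroblasts. The 6 Schwann cell markers summed to at most 3.44 CPM in m4. The 6 immune markers summed to 58.2, 16.4, 54.7 and 127.5 CPM in m4 on plates A to D, against 17.7, 54.2, 5.6 and 225.5 CPM in the other fibroblasts. They were thus higher in m4 on plates A and C and lower on plates B and D. The part of these low levels in the results was not tested.

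The 4 marker genes were higher in m4 than in the other fibroblasts of the same plate on every plate. The clusters were drawn from these same cells and genes, so m4 against another cluster is a description and no p-value is given. *Wif1* was at 316, 482, 147 and 924 CPM in m4 against 0.642, 5.44, 0.117 and 1.04 CPM in the other fibroblasts. Every plate of m4 lay far above every plate of the other fibroblasts, with a log2 difference within plates of 7.42 ± 1.09 (SD, n = 4 plates). *Gfra2* was at 334, 219, 258 and 289 CPM in m4 against 15.8, 49.7, 13.9 and 28.1 CPM. It was the steadiest of the 4 markers, at 275 ± 48.8 CPM over the plates of m4 (SD, n = 4). *Thy1* was at 274, 268, 44.5 and 199 CPM in m4 against 33.1, 60.9, 15.2 and 13.1 CPM. The m4 cells of plate C had less *Thy1* than the other fibroblasts of plate B, although m4 was the higher within each plate. *Slit2* was at 94.1, 145, 20.8 and 339.9 CPM in m4 against 1.01, 7.91, 10.6 and 36.5 CPM. On plate C the *Slit2* ratio stayed under 2-fold, the limit used here for a call, and the m4 level there lay below that of the other fibroblasts on plate D.

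**Figure D1:**
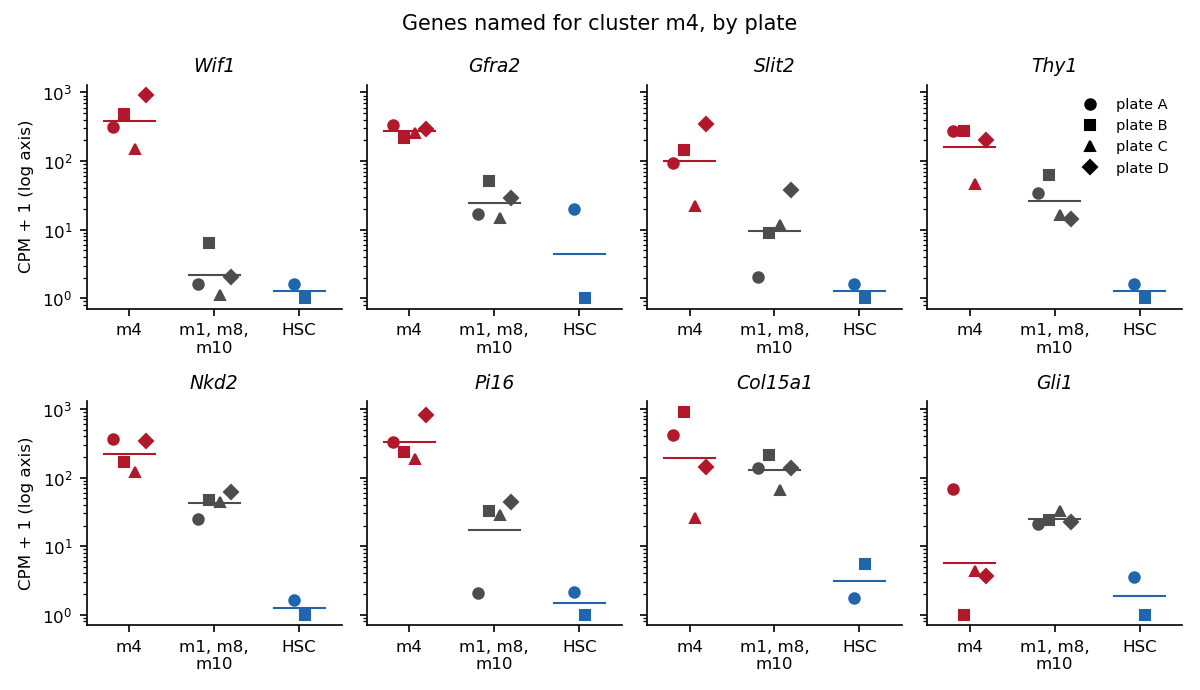
Levels of the 8 genes that the study names for cluster m4, as CPM + 1 on a log axis, in m4 (red), in the m1, m8 and m10 cells together (grey) and in HSC of m7c (blue); each symbol is 1 plate and each line the mean of the log values. *Wif1* lies between 147 and 924 CPM in m4 and at or below 5.44 CPM in the other fibroblasts, while *Col15a1* and *Gli1* overlap between the groups.

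Single m4 cells carried these markers in different combinations. *Thy1* had a count in 91 of 98 cells (92.9%, exact binomial 95% interval 85.8 to 97.1%), *Gfra2* in 64 of 98 cells (65.3%, exact binomial 95% interval 55.02 to 74.6%) and *Wif1* in 45 of 98 cells (45.9%, exact binomial 95% interval 35.8 to 56.3%). *Slit2* had a count in 45 of 98 cells. The intervals cover counting error only. The median m4 cell had no *Wif1* count, the highest reached 4360 CPM, and the cell with most *Wif1* gave 10.04% of its m4 counts. All 4 markers were found together in 16 m4 cells, 3 in 29, 2 in 43, 1 in 8 and none in 2. Of the 45 cells with *Wif1*, 42 had *Thy1*, 30 had *Gfra2* and 26 had *Slit2*. All 4 markers occurred together in 3 of 181 m1 cells and in 0 of 156 m8, 127 m10, 119 m9 and 72 m7c cells. The share of cells with a *Wif1* count was 13.3% in m1, 8.33% in HSC and, as a background, 0.926% in immune cells, whose median depth was 241056 counts in males and 265574 in females. *Gfra2* and *Gli1* were also found in many immune cells. *Gfra2* had a count in 43.8% of immune cells, where it was at 96.9 CPM, and 20 counts or more in 18.1%, against 55.1% of m4 cells. *Gli1* had a count in 44.6% of immune cells and 29.6% of m4 cells, and 20 counts or more in 0.772% and 12.2%, so the share of m4 cells with any *Gli1* count is not read as expression. *Thy1* and *Slit2* had a count in 2.78% and 4.17% of immune cells. At 20 counts or more, *Wif1* was found in 36.7% of m4 cells and in 0 of the m1 and HSC cells. With every cell thinned to 50000 counts, a *Wif1* count remained in 42.9% of m4 cells and in 3.33% of m1 cells.

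**Figure D2:**
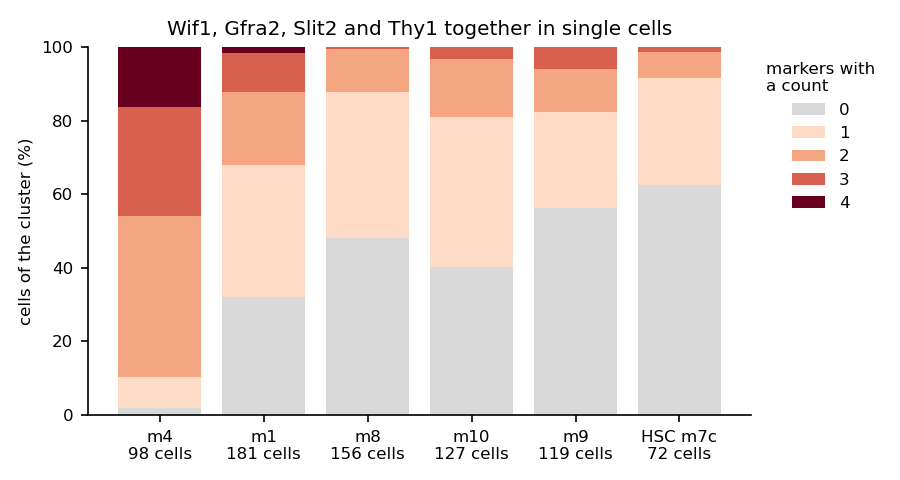
Share of the cells of each cluster, in percent, with a count of 0, 1, 2, 3 or 4 of the genes *Wif1*, *Gfra2*, *Slit2* and *Thy1*; the bars of a cluster add up to all its cells, and m9 holds the *Wt1* fibroblasts. In m4, 16 of 98 cells carried all 4 genes and 2 carried none.

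Across the clusters summed here, *Wif1* was at 427 CPM in m4 and next at 6.03 CPM in m8. It was at 0 in the hepatocyte clusters p4 and p5 and in the endothelial clusters e1, e2c, e3 and e5c. *Gfra2* was at 299 CPM in m4 and next at 96.9 CPM in immune cells. *Slit2* was at 127 CPM in m4 and at 102 CPM in the portal vein endothelial cluster e2c, closer than the plates of m4 were to each other.

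The remaining genes that the study names for the cluster were less uniform. *Nkd2*, encoding an intracellular inhibitor of Wnt signalling, was at 366, 166, 117 and 339.9 CPM in m4 against 23.9, 45.7, 43.3 and 61.5 CPM, with no overlap between the groups, and at 153 CPM in m9. *Pi16*, encoding a peptidase inhibitor found in adventitial fibroblasts, was at 329.6, 238, 186 and 813 CPM in m4 against 1.05, 32.01, 27.1 and 43.2 CPM. *Pi16* also separated m4 from the other fibroblasts on all plates, but m9 was higher still, at 588 CPM. *Col15a1*, a collagen of basement membrane zones, was at 421, 892, 24.99 and 143 CPM in m4 against 136, 212, 65.5 and 136 CPM. It was higher in m4 on 3 plates and lower on plate C, and its log2 fold change over the pools of 0.74 ± 0.57 (SE) did not reach the limit. *Gli1*, the transcription factor and target of Hedgehog signalling, was at 67.4, 0, 3.38 and 2.69 CPM in m4 against 19.8, 22.9, 31.9 and 21.7 CPM. The *Gli1* counts of m4 thus came mainly from plate A, and 1 cell gave 24.6% of them.

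For the comparison over all genes, counts were summed per cluster and pool, and a gene was called when its log2 fold change was 1 or more in size and no m4 sum overlapped a sum of m1, m8 or m10. Of 19807 genes, 776 were called higher in m4 (3.92%) and 1513 lower (7.64%). Within plates, 60 genes were 2-fold or more higher in m4 on all 4 plates (0.303%) and 351 lower (1.77%), against a median within-plate difference of -0.27 over all genes. Both measures held for 55 genes higher and 278 lower. Most pool calls for higher genes were therefore not seen on each plate, and both measures are given.

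The genes named next had the largest folds above the other fibroblasts among those found in 50% or more of the m4 cells, except *Ptn*, which was named from the comparison with HSC. *Fgfr2*, encoding an FGF receptor, was at 342, 275, 374 and 208 CPM in m4 against 21.6, 47.4, 27.3 and 22.8 CPM. Its log2 fold change was 3.19 ± 0.37 (SE) over the pools and 3.32 ± 0.64 (SD, n = 4) within plates. *Nbl1*, a secreted BMP antagonist, was at 838, 1268, 898 and 754 CPM in m4 against 60.5, 155, 39.9 and 95.5 CPM, and at 1140.3 CPM in m9. *Ptn*, the growth factor pleiotrophin, was at 739, 869, 636 and 715 CPM in m4 against 71.96, 135, 160.4 and 106 CPM. In all 3 genes the plates of m4 lay above the other fibroblasts with no overlap. *Hmcn1*, encoding the matrix protein hemicentin, differed by 3.59 ± 1.75 within plates and was past 2-fold on each. *Tspan18* and *Cd9*, both tetraspanins, differed by 3.15 ± 1.80 and 2.38 ± 1.82, but *Tspan18* stayed under 2-fold on plate C and *Cd9* on plate B. *Postn*, the matricellular protein periostin, had the largest log2 fold change of this group over the pools, 6.09 ± 1.33. Its levels were 707, 6.89, 428 and 7.47 CPM in m4 against 3.45, 3.76, 1.05 and 6.51 CPM, so it was high in m4 on plates A and C and close to the other fibroblasts on plates B and D. Without the male pool its log2 fold change was 0.32. *Postn* was not particular to m4, at 495 CPM in m4 against 188 CPM in m9 and 589 CPM in HSC, and 20 counts or more were found in 25.5% of m4, 15.97% of m9 and 48.6% of HSC cells.

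Several named genes were lower in m4 on every plate. *Ednrb*, encoding the endothelin receptor B, was at 4.46, 1.29, 1.04 and 9.56 CPM in m4 against 646, 169, 99.7 and 134 CPM. *Smoc1*, a calcium-binding matricellular protein, was at 14.7, 3.01, 0.521 and 6.27 CPM in m4 against 213, 317, 375 and 323 CPM. *Ccbe1*, a secreted protein needed for lymphatic growth, was at 8.51, 1.72, 2.6 and 1.49 CPM in m4 against 97.02, 216, 375 and 156 CPM. In all 3 genes every plate of m4 lay below every plate of the other fibroblasts. *Ccdc3*, *Ggt5*, *Phkg1* and *Notch3* were also 2-fold or more lower on all 4 plates, with log2 differences of -4.55 ± 1.11, -4.31 ± 2.03, -3.31 ± 1.41 and -4.32 ± 1.04. *Igfbp5*, an IGF-binding protein, was lower over the pools but reached 80.1 CPM in m4 on plate B.

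**Figure D3:**
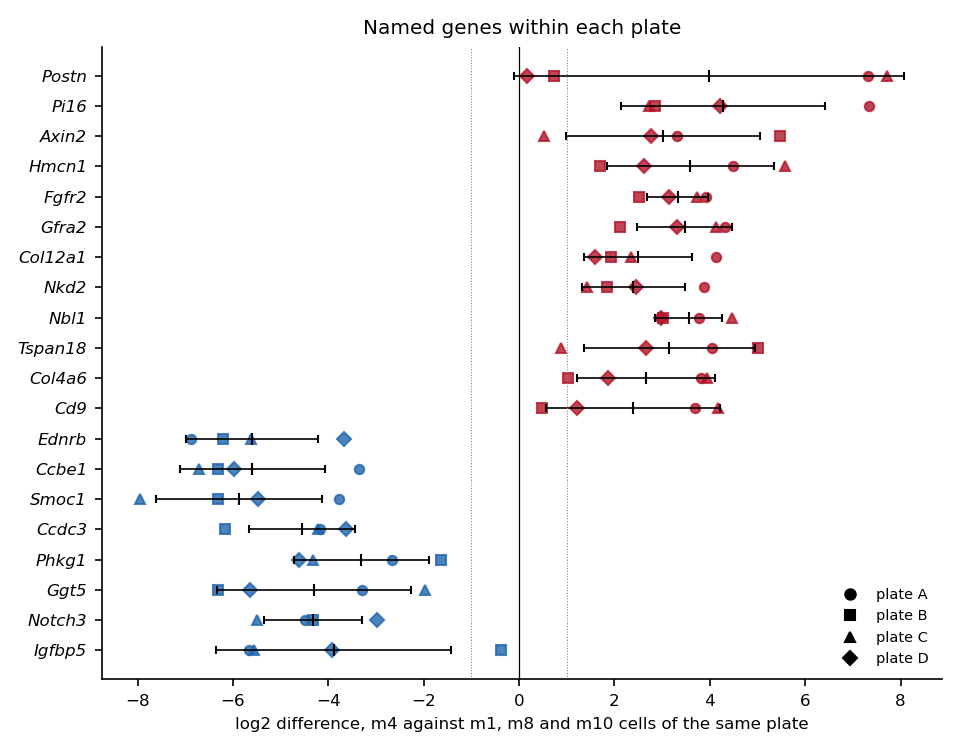
Log2 difference between m4 and the m1, m8 and m10 cells of the same plate for the named genes called higher (red) or lower (blue) over the pools; symbols are the 4 plates, black bars the mean ± SD and dotted lines the 2-fold limit. *Fgfr2*, *Gfra2* and *Nbl1* are past 2-fold on each plate, while *Postn* runs from 0.17 on plate D to 7.71 on plate C.

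Wnt signalling runs from secreted ligands through Frizzled and LRP receptors to β-catenin and TCF/LEF factors, which also induce inhibitors of the pathway such as *Axin2*, *Nkd1* and *Apcdd1*. Of 68 listed Wnt genes 49 were tested, of which 6 were called higher and 4 lower over the pools, against 3.92% and 7.64% of all genes, with a median log2 fold change of 0.15 against -0.03 over all genes. The share called lower was close to that of all genes. Within plates, 5 were 2-fold or more higher on all 4 and 1 lower, against 0.303% and 1.77% of all genes, and the median difference was -0.16 against -0.27. The higher counts by both measures include *Wif1*, given as a marker of m4, and *Nkd2*, named for m4 by the study. They therefore partly restate that choice. Of 9 ligands tested, 0 were called in either direction. Of 12 secreted inhibitors, *Wif1* and *Dkk2* were called higher. *Dkk2*, which binds LRP co-receptors, was at 197, 66.7, 51.8 and 42.7 CPM in m4 against 0.338, 0.0442, 0.35 and 1.77 CPM, again with no overlap. Of 7 intracellular or membrane inhibitors, *Nkd2* and *Axin2* were called higher. *Axin2*, a scaffold of the β-catenin destruction complex, was at 281, 61.1, 17.4 and 29.6 CPM in m4 against 27.3, 0.398, 11.9 and 3.49 CPM, so that m4 was higher on each plate but by under 2-fold on plate C. *Apcdd1*, a membrane inhibitor, was at 112, 177, 11.2 and 8.07 CPM in m4 against 4.8, 6.5, 0 and 0.423 CPM, past 2-fold on all 4 plates although not called over the pools. *Nkd1*, the paralogue of *Nkd2*, differed by 0.49 ± 0.61 (SD, n = 4) within plates, and *Sfrp1*, another secreted inhibitor, by 0.30 ± 0.63, so neither was separated. Of 15 receptors, *Fzd1* and *Fzd2* were called higher and *Fzd4*, *Fzd5*, *Fzd6* and *Lgr4* lower. *Fzd1* was at 752, 878, 398 and 528 CPM in m4 against 209, 216, 61.5 and 121 CPM, past 2-fold on each plate, which *Fzd2* was not. The *Fzd2* log2 fold change of 1.10 was 0.35 without the male pool, and that of *Fzd4*, -1.41, was -0.39 without plate A. *Fzd5*, at -6.93 over the pools, was at -0.81 within plates, under 2-fold. The co-receptor *Lrp5* was lower on all 4 plates, with a log2 difference of -3.30 ± 2.08.

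**Figure D4:**
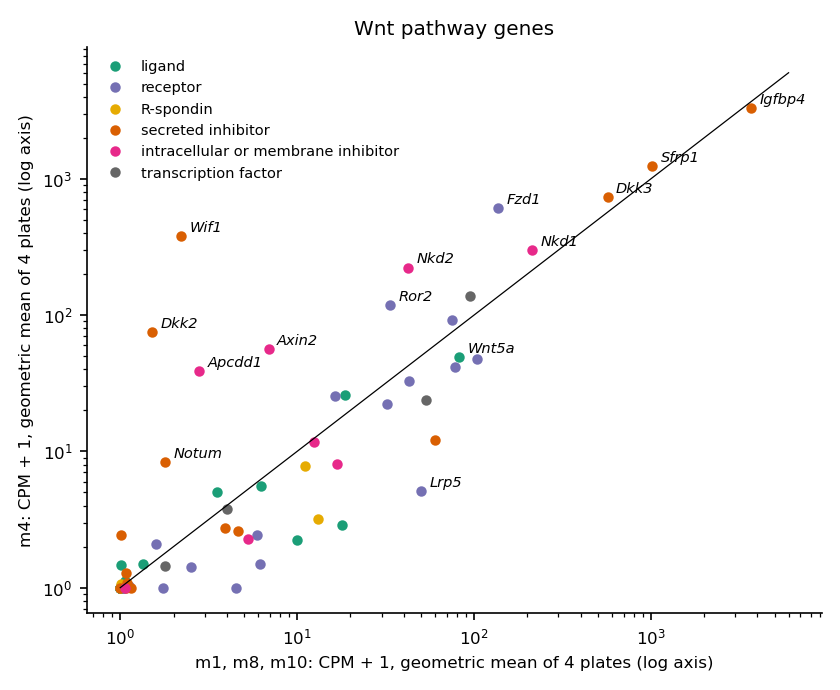
Levels of the listed Wnt genes in m4 (vertical) and in the m1, m8 and m10 cells (horizontal), each the geometric mean of CPM + 1 over the 4 plates on log axes; colours give the role of the gene and the line marks equal levels. *Wif1*, *Dkk2*, *Apcdd1*, *Axin2* and *Nkd2* lie above the line, while *Nkd1* and *Sfrp1* lie close to it.

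The promoters of *Wif1* and *Nkd2* are shown because both genes encode Wnt inhibitors that were higher in m4 on each plate. The 250 bases before the RefSeq start (build GRCm38.p6) are printed 5′ to 3′ on the strand of the gene, at chr10:121033754-121034003 (plus strand) and chr13:73847632-73847881 (minus strand).
Wif1: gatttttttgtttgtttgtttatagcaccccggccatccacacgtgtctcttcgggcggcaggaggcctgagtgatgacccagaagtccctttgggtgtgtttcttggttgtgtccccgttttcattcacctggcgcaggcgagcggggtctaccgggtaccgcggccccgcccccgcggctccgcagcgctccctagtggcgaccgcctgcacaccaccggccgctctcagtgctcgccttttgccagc
Nkd2: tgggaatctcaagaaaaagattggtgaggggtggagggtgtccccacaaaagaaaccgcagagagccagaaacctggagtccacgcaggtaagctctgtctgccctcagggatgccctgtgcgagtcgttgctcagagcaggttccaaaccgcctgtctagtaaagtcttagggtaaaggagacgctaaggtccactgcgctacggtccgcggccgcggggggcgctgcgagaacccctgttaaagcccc
Neither window held the TCF/LEF core CTTTGA or the GLI core ACCACCC on either strand, so no base is in capitals, and the windows of *Slit2*, *Axin2*, *Dkk2*, *Ptch1* and *Hhip* held neither. Of 32851 promoter windows of this length, 13.8% held the TCF/LEF core and 3.92% the GLI core. This says only that these letters are not in these windows, and other forms of the cores were not searched.

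Hedgehog ligands bind PTCH1, which releases SMO and activates GLI factors. Of 13 Hedgehog genes tested, *Ptch1* and *Hhip*, which both bind the ligand and restrain the pathway, were called higher, and 3 lower, *Gli2* and *Kif7* among them, against 3.92% and 7.64% of all genes. Within plates, 1 was past 2-fold higher on all 4 and 1 lower, against 0.303% and 1.77% of all genes. *Kif7*, at -2.67 over the pools, was at -0.55 with sums per plate, and of the 4 plates plate B alone had a count of it in m4. *Hhip* was at 112, 51.7, 20.04 and 69.00 CPM in m4 against 0.406, 1.46, 0 and 0.394 CPM, with no overlap. *Hhip* is also one of the 7 HSC markers and was at 298 CPM in m7c. *Ptch1* was at 244, 2.58, 146 and 143 CPM in m4 against 69.1, 51.2, 82.3 and 55.02 CPM, so the m4 cells of plate B were below the other fibroblasts.

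Receptors for neural growth factors differed within a family. *Ntrk2*, the receptor for BDNF, was at 887, 987, 1011 and 1395 CPM in m4 against 195, 271, 270.0 and 497 CPM. *Ntrk3*, the receptor for NT-3, was at 0.114, 0.43, 5.21 and 0.597 CPM in m4 against 26.6, 27.3, 26.8 and 39.1 CPM. On each plate m4 was thus the higher for *Ntrk2* and the lower for *Ntrk3*, past 2-fold in both. *Ret*, the signalling partner of GFRα receptors, had a count in 0 of 98 m4 cells. *Ncam1*, another partner, was at 0.8, 0.861, 0.26 and 2.69 CPM in m4 against 55.6, 38.02, 118 and 141 CPM.

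In the BMP and TGF-β family, 4 of 41 tested genes were called higher (*Nbl1*, *Bmp2* and the activin subunits *Inhba* and *Inhbb*) and 4 lower (*Bmp3*, *Gdf6*, *Gdf15* and *Fst*), against 3.92% and 7.64% of all genes. The share called lower was close to that of all genes. On all 4 plates, 3 were past 2-fold higher and 2 lower, against 0.303% and 1.77% of all genes. *Gdf15*, at -3.87 over the pools, was at -0.26 without plate A. *Inhba* was at 53.1, 87.8, 69.2 and 128 CPM in m4 against 8.83, 14.1, 4.32 and 14.4 CPM, and *Bmp2* at 188, 94.3, 188 and 206 CPM in m4 against 26.8, 46.8, 12.4 and 15.3 CPM. Neither gene overlapped between the groups. *Gdf6*, a BMP ligand, differed by -4.49 ± 1.45 within plates.

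In the Notch pathway, which runs between touching cells from DSL ligands to HES and HEY factors, 0 of 13 tested genes were called higher and 4 lower, against 3.92% and 7.64% of all genes. The median log2 fold change was -1.19 against -0.03 over all genes, and within plates, where also 0 were past 2-fold higher and 4 lower (0.303% and 1.77% of all genes), it was -1.79 against -0.27. *Notch3*, a receptor of mural cells, was at 10.3, 3.44, 0.521 and 9.86 CPM in m4 against 254, 87.3, 67.8 and 84.6 CPM. The target *Heyl* was at 57.9, 46.9, 44.2 and 101 CPM in m4 against 388, 200.2, 109 and 328 CPM. Every plate of m4 lay below every plate of the other fibroblasts for both genes. Of 7 smooth muscle markers, 2 were 2-fold or more lower on all 4 plates and 0 higher, against 1.77% and 0.303% of all genes. These 2 were *Tagln* and *Notch3* itself, which is on both lists, so the counts are not separate. The 7 had a median within-plate difference of -1.08, and the median of 6 endothelial markers was -1.28. The smooth muscle markers summed to 859 to 2561 CPM in m4 and 1296 to 2371 CPM in the other fibroblasts. Their part in the Notch genes was not tested.

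Of 37 collagen genes tested, 6 were called higher and 3 lower, against 3.92% and 7.64% of all genes, and the share called lower was close to that of all genes. On all 4 plates, 4 were past 2-fold higher and 0 lower, against 0.303% and 1.77% of all genes. Of the 9 fibrillar collagens among them, 0 were called in either direction over the pools. *Col4a5* and *Col4a6* encode basement membrane chains from neighbouring genes. *Col4a5* was at 429.5, 299, 137 and 327 CPM in m4 against 80.9, 59.5, 39.1 and 51.3 CPM, and *Col4a6* at 203, 61.1, 262 and 114 CPM in m4 against 13.6, 29.3, 16.1 and 30.5 CPM, with both past 2-fold on each plate. *Col4a1*, a chain of most basement membranes, was at 386, 329, 76.3 and 381 CPM in m4 against 680.1, 801, 719 and 479 CPM. It is 1 of the 3 lower calls, but its log2 fold change lay at the limit and was -0.86 with DESeq2, -0.57 with m9 added and -0.21 without the male pool. *Col12a1*, a fibril-associated collagen, and *Col7a1*, the anchoring fibril collagen, were past 2-fold on all 4 plates, *Col12a1* at 187, 54.7, 177 and 68.4 CPM in m4 against 9.7, 13.6, 33.9 and 22.2 CPM. *Col7a1* had a count in 19.4% of m4 cells.

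Other matrix lists held calls in both directions, to be read against 3.92% higher and 7.64% lower among all genes over the pools, and 0.303% and 1.77% on all 4 plates. Of 25 matricellular genes, 1 was called higher (*Postn*) and 9 lower, and on all 4 plates 0 were past 2-fold higher and 5 lower. *Thbs2* (thrombospondin 2), called lower, was at 738, 954, 545 and 92.9 CPM in m4 against 2413, 2426, 1643 and 877 CPM. *Dpt* (dermatopontin) was lower too, with a log2 difference of -1.39 ± 0.67 within plates. Of 22 proteoglycan genes, 3 were called higher and 5 lower, and on all 4 plates 0 were past 2-fold higher and 4 lower. *Fmod* (fibromodulin), which binds collagen fibrils, was at 410.0, 486, 259 and 702 CPM in m4 against 1918, 2238, 2231 and 2024 CPM, and *Podn* (podocan) at 219, 298, 320.4 and 440.3 CPM in m4 against 1236, 1508, 1515 and 1124 CPM. Every plate of m4 lay below the other fibroblasts for both. Of 23 elastic fibre genes, 4 were called higher and 3 lower, but on all 4 plates 0 were past 2-fold higher and 1 lower. *Fbn2*, a microfibril fibrillin, was at 123, 42.6, 85.6 and 428 CPM in m4 against 12.8, 26.7, 6.89 and 14.8 CPM, and *Fbln5*, which assembles elastin, at 247, 446, 76.5 and 549.6 CPM in m4 against 2163, 1893, 2682 and 1780.0 CPM. The groups did not overlap for either gene, and the directions were opposite.

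The comparison of m4 with HSC separates fibroblast from stellate cell genes, and its HSC side rested on 1 sum of 68 male cells. By the rule used for the fibroblasts, 3501 of 19807 genes were called higher (17.7%) and 4805 lower (24.3%). In a test of this rule with known answers, more unchanged genes were called than the limit set for it allows, so these counts are not read as numbers of genes that differ. Against the HSC of the same plate, on plates A (35 HSC) and B (5 HSC), 1775 genes were 2-fold or more higher on both (8.96%) and 641 lower (3.24%). Both the pools and the 2 plates called 1050 genes higher (5.3%) and 489 lower (2.47%), and the genes below are given by their levels on the plates.

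Most HSC markers were lower in m4 than in HSC. *Reln*, encoding the matrix protein reelin, was at 3.09 and 1.29 CPM in m4 on plates A and B against 3965 and 2372 CPM in HSC. *Lrat*, the enzyme that esterifies retinol for storage, was at 32.9 and 0.861 CPM in m4 on plates A and B against 2001 and 4252 CPM. Some *Lrat* count was found in 49 of 98 m4 cells, 20 counts or more in 5, and 1 cell gave 36.9% of the counts. Of 7 HSC markers, of which 6 were at 10 CPM or more in m4, 5 were 2-fold or more lower in m4 than in HSC on both plates and 0 higher, against 3.24% and 8.96% of all genes. Of 30 retinoid and stellate cell genes, 16 were lower and 1 higher on both plates. *Fgfr2* was at 1792 and 521 CPM in HSC on plates A and B, above m4 on both. The named genes with the largest fold below HSC also held *Bco1*, which cleaves β-carotene, at 0.229 and 0 CPM in m4 on plates A and B against 229 and 684 CPM, *Lhx2*, a transcription factor of stellate cells, at 0.286 and 0.43 CPM in m4 on plates A and B against 290.1 and 4.53 CPM, and *Colec10*, a secreted collectin, at 3.43 and 0 CPM in m4 on plates A and B against 1364 and 1171 CPM. The plates of m4 and of HSC did not overlap for these genes.

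Of 8 fibroblast markers, 4 were 2-fold or more higher in m4 than in HSC on both plates and 0 lower, against 8.96% and 3.24% of all genes. Of 13 portal fibroblast genes tested, 10 were higher by the same measure and 0 lower. Over the pools, 2 were called higher (*Thy1* and *Slit2*) and 2 lower (*Fbln2* and *Nt5e*) than in the other fibroblasts, against 3.92% and 7.64% of all genes, and 1 was past 2-fold higher on all 4 plates (0.303% of all genes). Both *Thy1* and *Slit2* were given as markers of m4, so the counts of this list partly restate that choice. *Entpd2*, an ectonucleotidase of portal fibroblasts, was at 181 and 276 CPM in m4 on plates A and B against 0.886 and 6.8 CPM in HSC. It did not separate m4 from the other fibroblasts, with a within-plate difference of 0.24 ± 0.38. *Eln* (elastin) was at 567 and 427 CPM in m4 on plates A and B against 56.98 and 6.8 CPM. Among the named genes with the largest fold above HSC, *Fxyd6*, a regulator of the sodium pump, was at 939.9 and 956 CPM in m4 on plates A and B against 5.57 and 0 CPM, *Adcy7*, an adenylate cyclase, at 395 and 300.4 CPM in m4 on plates A and B against 0.633 and 0 CPM, and *Penk*, the precursor of enkephalins, at 546 and 557 CPM in m4 on plates A and B against 1.14 and 4.53 CPM. *Ptn* was at 2.15 and 0 CPM in HSC and *Nkd2* at 0.633 and 0 CPM. Of 20 immediate early and stress genes, 16 were 2-fold or more higher in m4 than in HSC on both plates and 0 lower, against 8.96% and 3.24% of all genes. Against the other fibroblasts, 1 was called higher and 1 lower over the pools, against 3.92% and 7.64% of all genes, and 0 within plates. Their part in the HSC comparison was not tested.

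For the bile duct niche, levels in m4 were set beside those of cholangiocytes (187 cells) and of the peribiliary endothelium e5c (14 cells), with no test. *Col1a1* was at 5232 CPM in m4 and 4.95 CPM in cholangiocytes. *Itgb4* and *Itgb6*, integrin chains of epithelia, were at 86.2 and 51.4 CPM in cholangiocytes and at 0.52 and 0.104 CPM in m4. *Met*, the receptor for HGF, had a count in 49 of 187 cholangiocytes and 1 of 98 m4 cells, while *Hgf* was at 86.1 CPM in m4 and 653 CPM in HSC. The SLIT receptors *Robo1* and *Robo2* were at 1.26 and 0.017 CPM in cholangiocytes. *Robo2* was at 86.9 CPM in e5c and 208 CPM in HSC.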

How the data were processed

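Single liver cells were sorted into 384-well plates and sequenced by Smart-seq2. Per the labels, the submitters' notes name bcl2fastq, Bowtie, Bowtie2, Subread, featureCounts, Seurat and the builds GRCm38 and mm10; versions of the aligners and the counter and the strand setting are not given in the sources used here. The authors deposited whole-number read counts per gene and cell, without molecular identifiers, and the pagoda2 cluster of each cell. The 92 spike-in rows were left out, and 40 cell columns of plates with under 20 cells were not used. Counts were summed per cluster and pool (5 cells or more), which gave 7 sums, and fitted with edgeR 4.0.16 (TMM, filterByExpr, quasi-likelihood fit) in R 4.3.3, whose log2 fold changes and standard errors are given without p-values. The female HSC sum had 4 cells and was left out. Within plates, log2 ratios of CPM + 1 were taken. Depth was 70217 to 694566 counts per male m4 cell and 98018 to 637913 per female one.

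The fit and both call rules were tested on simulated data with known answers. The simulated sums had the same spread for all genes and no difference between plates or sexes. The real sums differ in this, so a rate found there does not bound the wrong calls here. The rule against the fibroblasts stayed within the limit of 10% set for unchanged genes called but still called some, so its counts are not read as numbers of genes that differ either. The rule against HSC, which rests on 1 HSC sum, exceeded the limit. This rule was kept as planned and is reported as failing. A 4-fold call was added after this was seen, which stayed within the limit but found fewer of the simulated changed genes.

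Members, gene lists and motifs were chosen with earlier results of these data known. Named genes were the 8 genes the study names for m4, up to 12 higher and 8 lower genes per comparison with the largest fold found in 50% or more of cells of the higher side, and up to 5 members per list by level or fold; *Podn*, *Fmod*, *Il34*, *Flt1* and others outside these were chosen after their values were seen. Some measured genes are not reported here.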

Additional observations from a re-analysis of the deposited data

Results flagged for a closer look

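The 4 plates of m4 were searched, for 104 genes, for a plate whose gap to the nearest other, divided by the range, was above Dixon's limit for 4 values. There were 21 such genes. Chance flags about 1 in 20 groups of like samples. That rate does not hold here, since the plates held 54, 16, 13 and 9 m4 cells and are shared by all genes, and a gene with counts on 1 plate alone (*Bco1*, *Cdh1*, *Colec10*, *Epcam* and *Kif7*) is above the limit by construction.

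Plate A stood above the other plates for *Axin2* at 281 CPM, *Dkk2* at 197 CPM, the co-receptor *Lrp5* at 58.1 CPM and *Gli1* at 67.4 CPM. It was also above the others for *Ccbe1* (8.51 CPM), *Gdf6* (8.57 CPM), *Colec10* (3.43 CPM) and *Bco1* (0.229 CPM). *Dkk2* remained above the other fibroblasts on each plate, and *Gli1* did so on plate A alone.

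Plate B stood apart for *Igfbp5* (80.1 CPM), *Kif7* (21.5 CPM), *Phkg1* (9.04 CPM) and *Lgr4* (2.58 CPM), and was below the other plates for *Bmp2* (94.3 CPM). Plate C stood above for *Fbln2* (76.5 CPM), *Gli2* (52.1 CPM), *Ccl7* (19.8 CPM), *Ccl2* (6.77 CPM), *Ntrk3* (5.21 CPM), *Epcam* (2.60 CPM) and *Cdh1* (0.521 CPM), of which *Epcam* and *Cdh1* are cholangiocyte markers. Plate D stood above for *Fxyd6* (1648 CPM).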

How the results depend on the processing

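Counts of calls moved with the setting, and the cause was not tested. Against the fibroblasts (776 higher, 1513 lower), higher calls were 2263 with sums of 10 cells or more, 54 with sums per plate, 403 at 4-fold and 60 within plates, and lower calls 33 with sums per plate, 840 with m9 added, 993 at 4-fold and 351 within plates. Against HSC (3501 and 4805), higher calls were 5455 with sums of 10 cells or more, 671 per plate, 2228 at 4-fold and 1775 within plates, and lower calls 1651 with sums of 3 cells or more, 141 per plate, 2612 at 4-fold and 641 within plates. Leaving out 1 pool left no residual degrees of freedom and gave 2707 to 2853 higher and 2225 to 6748 lower against the fibroblasts, and without the female pool 5271 higher and 4259 lower against HSC; without the male pool HSC had no sum. The 4-fold, within-plate and without-plate-A settings were added after the data were seen. Without plate A, 925 were higher and 1659 lower against the fibroblasts, of which 440 and 764 were also called with it. With m9 added to the other fibroblasts, 521 were higher and 840 lower, of which 464 and 814 were also called without m9. For single genes and settings, 2348 values moved by less than the spread, taken as the SD over plates for the fibroblasts and the SE for HSC, 354 moved by more and 7 turned. Of 77 genes that the text names or its rules chose and that were called against the fibroblasts, 16 fell under 2-fold or turned in a setting. *Ccl7* against the fibroblasts, -2.25, was 2.49 without plate A. Against HSC, *Igfbp5* (2.04), *Fzd2* (3.51) and *Il34* (1.69) were -0.42, -0.48 and -0.10 with sums of 3 cells or more, and *Fzd4* (-1.40), *Heyl* (-1.13) and *Nt5e* (-4.80) were 2.08, 0.48 and 0.74 within plates.

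With the pool as a replicate block, 716 genes were higher and 1492 lower than in the fibroblasts and 3232 and 4440 than in HSC. The male minus female differences of m4 and m1 correlated at 0.109 over 19807 genes. With only 2 pools this does not show that the numbers pair the samples. With DESeq2 1.42.0 the fibroblast counts were 849 and 1456.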

Other observations

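Of 24 tested genes of the PDGF and VEGF families, which act in vessel growth, 0 were called higher and 7 lower in m4 than in the other fibroblasts, against 3.92% and 7.64% of all genes. On all 4 plates 0 were past 2-fold higher and 4 lower, against 0.303% and 1.77% of all genes, with a median within-plate difference of -1.09 against -0.27 over all genes. The 6 endothelial markers, with a median within-plate difference of -1.28, summed to 7.31, 41.3, 6.51 and 169 CPM in m4 and to 12.4, 331, 8.29 and 194 CPM in the other fibroblasts on plates A to D, and their part was not tested. *Flt1*, encoding a VEGF receptor, was at 12.4, 3.01, 35.9 and 9.86 CPM in m4 against 164, 89.9, 138 and 127 CPM on plates A to D. *Pgf*, the placental growth factor, was at 21.3, 21.95, 0.781 and 6.27 CPM in m4 against 75.6, 77.7, 77.6 and 131 CPM. Every plate of m4 lay below every plate of the other fibroblasts for both genes. *Vegfd* was at 94.1, 11.2, 202 and 123 CPM in m4 against 411, 237, 418 and 218 CPM, and its log2 fold change of -1.55 was -0.70 without the male pool.

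Of 29 chemokine and cytokine genes, 2 were called higher (*Il6* and *Il34*) and 3 lower (*Cxcl5*, *Ccl2* and *Ccl7*), close to the shares of all genes, 3.92% and 7.64%. *Ccl7*, at -2.25, turned to 2.49 without plate A and was at -0.41 with sums per plate. On all 4 plates 1 was past 2-fold higher and 2 lower, against 0.303% and 1.77% of all genes. *Il34*, a ligand of the CSF1 receptor, was at 142, 100.3, 157 and 280.5 CPM in m4 against 28.9, 23.5, 0.7 and 19.2 CPM, with no overlap and past 2-fold on each plate, and had a count in 40.8% of m4 cells. *Il6* was at 21.7, 0.861, 26.3 and 53.2 CPM in m4 against 4.02, 3.98, 6.07 and 9.41 CPM, lower in m4 on plate B. Among guidance receptors, *Plxna4*, a plexin, was at 115, 95.98, 60.4 and 139 CPM in m4 against 583, 256, 479 and 294 CPM, and *Epha4*, an ephrin receptor, at 95.01, 48.2, 82.8 and 125 CPM in m4 against 16.5, 39.5, 2.8 and 36.8 CPM. *Plxna4* was below the other fibroblasts and *Epha4* above them on each plate. The *Plxna4* log2 fold change of -1.51 was -0.96 without the male pool.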
